A study of Homo sapiens with 6 samples.

Results

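Cancer-testis antigen genes were measured in the human breast tumour line MDA-MB-436 as a readout of germline gene silencing. They were found by their symbols, namely all genes whose names begin with MAGEA, MAGEB, MAGEC, GAGE, PAGE, XAGE, SSX and a digit, SPANX, CTAG, CT45, BAGE or CSAG, together with PRAME, DDX43, SYCP1, CTCFL, TEX14 and TEX15. Of the 54675 probe sets on the array, 83 name such a gene, alone or with others. They name 85 member genes of 21357 genes named on the array, and 39 member genes have a probe set of their own. The symbol rule also takes in 6 probe sets of SSX2IP and 4 of CTAGE genes, and 1 of the noncoding transcript SPANXA2-OT1, which are described separately at the end of the family results.

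The study profiled 3 arrays of NF1-C2S transfected cells and 3 arrays of wild type cells. NF1-C2 is a variant of NFIC, a DNA-binding protein of the nuclear factor I family. In the transfected cells it was overexpressed from a stably carried plasmid, and both groups grew in RPMI-1640 medium with serum and insulin. The other group is labelled wild type, and none of the 6 arrays is labelled as an empty-plasmid control. The labels do not state whether 1 clone or a pool was profiled. The labels do not say whether replicates were grown separately, so each p-value rests on a spread between samples that may be technical. A direct effect of the plasmid and a difference between cell populations that arose during selection cannot be told apart in this design.

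Cancer-testis antigens are proteins whose genes are normally transcribed in the germ cells of the testis and are silent in most other adult tissues, but are switched on again in many tumours. A large share of them lie in multicopy families on the X chromosome, and DNA methylation of CG dinucleotides at their promoters is the best known layer of their silencing. When that layer is removed, for instance by inhibitors of DNA methyltransferases, many of these genes are transcribed together.

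Arrays of the same group were alike. The correlation over all probe sets was 0.992 to 0.997 within the transfected group and 0.996 within the wild type group, against 0.971 to 0.976 between the groups. Values are log2 expression levels made with RMA, and array medians lay between 4.8 and 4.85. The median of all values, 4.82, is used below as a marker of dim signal, since the table holds no detection call. The epithelial keratin KRT18 read 11.62 in transfected and 12.55 in wild type cells. E-cadherin (CDH1) was dim at 3.44 and 3.42, although the labels call the cells epithelial. Of 8 blood cell markers 4 were at or above the median level. These included CD14 at 6.59 in transfected and 5.77 in wild type cells, and the red-cell globin HBB at 5.40 and 5.48. The list otherwise holds leukocyte genes, of which the pan-leukocyte marker PTPRC was dim at 3.86 and 3.65. Of 12 germ cell and pluripotency markers 6 were at or above it, among them TFAP2C at 8.97 and 10.03, while the germ cell genes DAZL and DDX4 were dim.

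Most cancer-testis antigen probe sets were dim in both groups, and few differed. Of the 83, 61 had a mean over the 6 arrays below 4.82 and 22 had a mean at or above it. A change is the transfected minus the wild type mean on the log2 scale, and it was called when limma's p, after Benjamini-Hochberg adjustment across the 54613 probe sets tested, was under 0.05. By that rule 4 member probe sets rose, where 10.8% of all probe sets tested rose, and 2 fell, where 11.4% of all fell. The members that rose were PRAME, MAGEA10, MAGEA12 and a probe set shared by LOC100533997 and MAGEA5P, and both that fell read SPANX genes. The median change over the 83 members was 0.0033, beside 0.0067 over all probe sets.

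The calls lay among the brighter members. All 6 fell among the 22 at or above the median level, a share of 27.3%, where 38.7% of all probe sets at or above the median were called. Without SSX2IP and CTAGE, 14 members were at or above the median level, and the same 6 calls made up 42.9% of them. Whether the share lies below or above that of all bright probe sets thus depends on those name matches. None of the 61 dimmer members was called by limma, where 5.57% of all dim probe sets were. At an unadjusted p under 0.05, 6 of those 61 passed. The groups did not overlap in 16 of the 83 probe sets, where they did not overlap in 34.9% of all probe sets. Among the 77 members that were not called, the 95% interval of the change lay within 1 log2 unit of 0 for 74 and within 0.5 for 62. The exceptions beyond 1 were CSAG2;CSAG3, one TEX15 and one SPANX probe set.

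**Figure D1:**
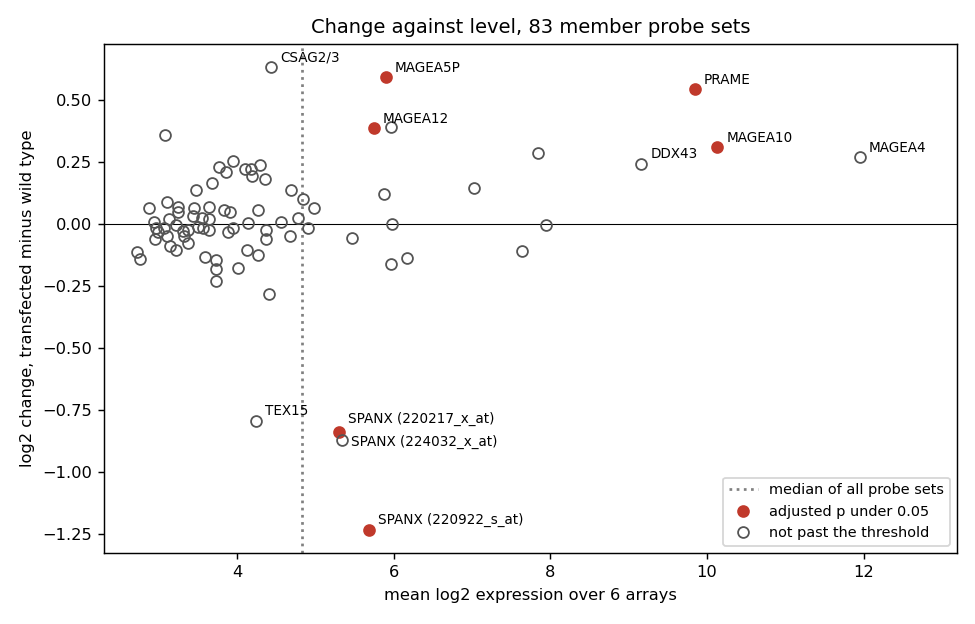
Change (transfected minus wild type, log2, y axis) against mean log2 level over 6 arrays (x axis) for the 83 member probe sets; filled points passed limma's adjusted p of 0.05, and the dotted line is the median of all probe sets. Called members lie at or above a level of 4.82, and the 3 SPANX probe sets there have the most negative changes.

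Promoter windows of 6 members are printed because they stand for the patterns described next. MAGEA4, PRAME and DDX43 read high in both groups, MAGEA12 rose slightly, SPANXA1 is read by the probe sets that fell, and MAGEA3 is a close relative of MAGEA12 that stayed dim. Sequences are RefSeq's for GRCh38.p14, each from 250 bases before to 50 bases after the annotated start, 5′ to 3′ on the gene's strand, with CG dinucleotides in capitals. The windows are chr22:22559216-22559515 (minus strand) for PRAME, chrX:151912224-151912523 (plus strand) for MAGEA4, chrX:152733507-152733806 (plus strand) for MAGEA12, chr6:73394578-73394877 (plus strand) for DDX43, chrX:141584689-141584988 (minus strand) for SPANXA1 and chrX:152698544-152698843 (plus strand) for MAGEA3. Where a gene has several annotated starts, the first listed is used.
PRAME: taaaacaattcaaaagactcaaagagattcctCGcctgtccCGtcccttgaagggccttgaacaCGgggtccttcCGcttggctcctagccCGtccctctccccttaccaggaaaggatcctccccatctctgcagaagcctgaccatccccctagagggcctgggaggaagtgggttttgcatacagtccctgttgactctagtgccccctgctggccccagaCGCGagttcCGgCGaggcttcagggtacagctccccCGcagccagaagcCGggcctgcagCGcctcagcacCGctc
MAGEA4: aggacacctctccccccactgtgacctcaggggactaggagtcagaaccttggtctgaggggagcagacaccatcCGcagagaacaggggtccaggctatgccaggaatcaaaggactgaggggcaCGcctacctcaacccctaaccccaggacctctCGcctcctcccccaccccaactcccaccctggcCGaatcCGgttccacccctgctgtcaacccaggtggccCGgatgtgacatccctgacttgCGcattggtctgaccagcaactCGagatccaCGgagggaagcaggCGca
MAGEA12: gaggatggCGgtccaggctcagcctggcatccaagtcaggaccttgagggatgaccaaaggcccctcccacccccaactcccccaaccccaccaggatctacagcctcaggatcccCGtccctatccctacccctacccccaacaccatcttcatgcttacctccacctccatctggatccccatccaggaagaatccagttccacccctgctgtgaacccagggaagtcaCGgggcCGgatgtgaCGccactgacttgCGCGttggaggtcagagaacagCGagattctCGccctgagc
DDX43: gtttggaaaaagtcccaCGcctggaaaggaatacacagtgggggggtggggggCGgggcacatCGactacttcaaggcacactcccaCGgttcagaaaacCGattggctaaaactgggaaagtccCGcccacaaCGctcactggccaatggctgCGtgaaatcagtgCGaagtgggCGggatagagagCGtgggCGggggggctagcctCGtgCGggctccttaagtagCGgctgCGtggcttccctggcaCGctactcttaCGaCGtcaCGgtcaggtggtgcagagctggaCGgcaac
SPANXA1: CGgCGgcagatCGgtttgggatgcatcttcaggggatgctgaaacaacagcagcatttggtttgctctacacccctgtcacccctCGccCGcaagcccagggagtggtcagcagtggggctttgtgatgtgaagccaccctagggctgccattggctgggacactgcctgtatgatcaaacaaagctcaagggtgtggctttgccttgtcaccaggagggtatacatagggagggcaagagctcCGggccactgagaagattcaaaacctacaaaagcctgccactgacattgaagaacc
MAGEA3: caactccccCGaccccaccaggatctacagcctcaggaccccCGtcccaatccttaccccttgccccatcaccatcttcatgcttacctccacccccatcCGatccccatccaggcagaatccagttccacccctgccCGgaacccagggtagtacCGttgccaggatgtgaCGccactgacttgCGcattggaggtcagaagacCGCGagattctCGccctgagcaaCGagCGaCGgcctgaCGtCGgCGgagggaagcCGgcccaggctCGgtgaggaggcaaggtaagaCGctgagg

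CG dinucleotides, the sites at which DNA is methylated, were counted in these windows. DDX43 held 21 and MAGEA3 19, while PRAME held 13, MAGEA4 10, MAGEA12 9 and SPANXA1 6. A window was found for 62 of the 85 measured member genes, with 1 to 32 CG dinucleotides and a median of 13, beside a median of 14 over all 35116 windows. Members count 1 window per gene, while all windows were not reduced to 1 per gene. The same holds for the motif shares given below. Genes with a probe set at or above the median level had a median of 10 CG (17 genes, 6 to 32), and those with dim probe sets only had a median of 13 (45 genes, 1 to 21). The 32 is that of SSX2IP, and the 17 also hold CTAGE genes. Among the other bright genes the count ran from 6 (SPANXA1) to 21 (DDX43). The ranges overlap, so genes that read high and genes that were dim are not separated by this count. Genes that share a probe set take its level, as SPANXB1 did at 5.68, though its own probe set had a mean of 3.73. GAGE copies likewise share their levels. MAGEA10 had no window.

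**Figure D2:**
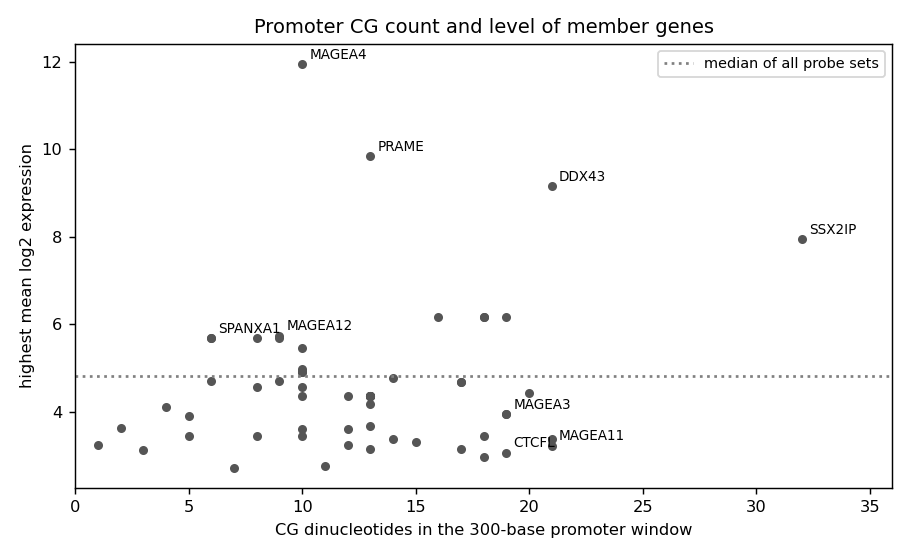
Highest mean log2 level among the probe sets of a gene (y axis) against the number of CG dinucleotides in the 300-base promoter window (x axis) for 62 member genes; the dotted line is the median of all probe sets. MAGEA4 reads highest with 10 CG, and MAGEA11 and MAGEA3 are dim with 21 and 19.

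Motifs were searched on both strands of the same windows as a description of their letters. The palindrome of the nuclear factor I family, TTGGC and GCCAA with 5 bases between them, was in none of the 62 member windows and in 0.0285% of all windows. One form of the ETS site, CCGGAA, was in 6 member windows (9.68%, against 17.2% of all), those of PRAME, MAGEA3, MAGEA6, CTCFL, MAGEB6 and CT45A10. The form CCGGAT was not searched for, and the printed windows of MAGEA4 and MAGEA12 hold it. These shares are thus not shares of all ETS sites. The E-box CACGTG, which contains a CG, was in 19 member windows (30.6%, against 7.26% of all). Those windows belong to 11 GAGE genes, 4 CTAGE genes, PAGE1, PAGE4, PAGE5 and XAGE3. The GAGE genes are near-identical copies, as are the CTAGE genes, so these are not independent examples.

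The MAGE-A proteins are adaptors of RING-type ubiquitin ligases, encoded by a cluster at the end of the long arm of the X chromosome. MAGEA4, a target of engineered T cells, read 12.03, 12.21 and 12.02 in transfected cells, against 11.77, 11.86 and 11.82 in wild type cells. Every transfected array was above every wild type array, but the difference was small and missed the threshold over all probe sets (log2 change 0.27, 95% interval 0.07 to 0.47, limma adjusted p = 0.0571). Over all probe sets it passed in 4 of 15 alternatives, with limma adjusted p-values up to 0.179 in the others. Those 4 were cyclic loess normalization (0.0419), array weights (0.035), a trended and robust variance prior (0.00216) and a filter on dim probe sets (0.0264). With 1 probe set per gene, over 19775 genes, MAGEA4 passed (limma adjusted p = 0.0351). That call ended with quantile normalization, when any wild type array was left out, and when 1 of the transfected arrays was.

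MAGEA10, a paralog of MAGEA4, read 10.29, 10.30 and 10.27 in transfected cells, against 9.93, 9.98 and 10.02 in wild type cells. The groups did not overlap, and the rise of 1.24-fold was called (log2 change 0.31, SE 0.07, limma adjusted p = 0.0167). The call ended without wild type replicate 1 or 2 or transfected replicate 2, at limma adjusted p-values of 0.0645, 0.052 and 0.0599, with changes of 0.29, 0.31 and 0.30. With 1 probe set per gene MAGEA10 was called under every alternative run.

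MAGEA12 was nearer to the dim end, at 5.76, 6 and 6.04 in transfected cells and 5.68, 5.46 and 5.50 in wild type cells. Its rise of 1.31-fold passed narrowly (log2 change 0.39, SE 0.11, limma adjusted p = 0.0336) and ended with the replicate number as a block (0.0541), with the trended and robust prior (0.0501) and without wild type replicate 2 or 3 or transfected replicate 2 or 3 (0.109 to 0.116). It was read by a probe set ending in _x_at, a class of probe sets that can bind related transcripts.

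Probe sets shared by the pseudogene MAGEA5P and LOC100533997 gave discordant readings. The brighter of 2 probe sets annotated to LOC100533997;MAGEA5P read 5.97, 6.22 and 6.38 in transfected cells, against 5.48, 5.50 and 5.81 in wild type cells. It rose by 1.51-fold (log2 change 0.59, SE 0.13, limma adjusted p = 0.015), a call that ended without wild type replicate 1 or 2 or transfected replicate 2 or 3 (0.0517 to 0.0621). The other probe set of the same annotation was dim and changed by 0.06 (limma adjusted p = 0.8), so the rise is not shared by both. The brighter probe set also ends in _x_at, and which transcript it reads cannot be told.

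The rest of the MAGE-A family was dim or near the median level. Over its 13 probe sets, 9 changes were positive and 4 negative, 3 were called, and in 6 the groups did not overlap. Among all probe sets 22.2% were called and 34.9% did not overlap, so these counts are not far from the shares over the array. The dim MAGEA6, the probe set shared by MAGEA6 and MAGEA3, and MAGEA1, the founding tumour antigen of the family, read changes of 0.21, 0.25 and 0.19 (limma adjusted p = 0.159, 0.179 and 0.188). MAGEA8, MAGEA11 and the probe sets of MAGEA2 and MAGEA2B were dim in both groups, with changes between -0.10 and 0.07. MAGEA9B;MAGEA9 read 4.90 in transfected and 4.91 in wild type cells.

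The bright members outside the MAGE family were PRAME and DDX43. PRAME, a leucine-rich protein that can repress retinoic acid receptor signalling and serves as a substrate receptor of a ubiquitin ligase, read 10.09, 10.14 and 10.13 in transfected cells, against 9.46, 9.56 and 9.71 in wild type cells. All transfected arrays were higher. The rise was 1.46-fold (log2 change 0.54, SE 0.09, 95% interval 0.34 to 0.75, limma adjusted p = 0.00282), and it kept its call under all 15 alternatives run, with adjusted p-values up to 0.0146. PRAME is the only member outside the X chromosome that was called.

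DDX43, a DEAD-box RNA helicase also known as HAGE, read 9.16, 9.16 and 9.52 in transfected cells, against 8.99, 9.14 and 8.98 in wild type cells. The groups did not overlap, but transfected replicate 3 stood above its fellows and the difference was not called (log2 change 0.24, 95% interval -0.03 to 0.51, limma adjusted p = 0.211). Without transfected replicate 3 the change was 0.12.

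SPANX proteins are nuclear proteins of the spermatid, encoded by near-identical X-linked copies, and their probe sets showed the largest difference among the members. The probe set of SPANXA2;SPANXB1;SPANXC;SPANXA1 read 5.13, 5.10 and 4.96 in transfected cells, against 6.48, 6.69 and 5.72 in wild type cells. Transfected values lay close to the median level of all probe sets, and wild type replicate 3 was the lowest of its group. The fall was 2.35-fold (log2 change -1.23, SE 0.23, 95% interval -1.76 to -0.71, limma adjusted p = 0.00559). It kept its call in all 13 alternatives in which the probe set was tested, with changes from -1.52 without wild type replicate 3 to -1.04 without wild type replicate 2.

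A second probe set, of SPANXA2;SPANXC;SPANXA1, read 4.99, 4.95 and 4.71 in transfected cells, against 6.11, 5.77 and 5.29 in wild type cells. It also fell (log2 change -0.84, SE 0.20, limma adjusted p = 0.0168), a call lost without wild type replicate 2 (0.0628) or transfected replicate 3 (0.0649). The third, of SPANXA2;SPANXA1, read 5.20, 4.79 and 4.71 in transfected cells and 6.20, 5.98 and 5.14 in wild type cells. Here wild type replicate 3 overlapped the transfected arrays, and the change of -0.87 was not called (limma adjusted p = 0.0523), although it passed with the replicate block (0.00669). Without wild type replicate 3 it was -1.19 (0.00488).

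These 3 probe sets are not independent, since the same transcripts can bind to each, and which SPANX copy they read cannot be told apart. The only probe set that names SPANXB1 alone was dim, at 3.77, 3.53 and 3.55 in transfected and 3.91, 3.94 and 3.69 in wild type cells, and its change of -0.23 was not called (limma adjusted p = 0.188). SPANXA2-OT1, a noncoding transcript beside SPANXA2, was dim and read a change of 0.09. RMA compresses differences between dim values.

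**Figure D3:**
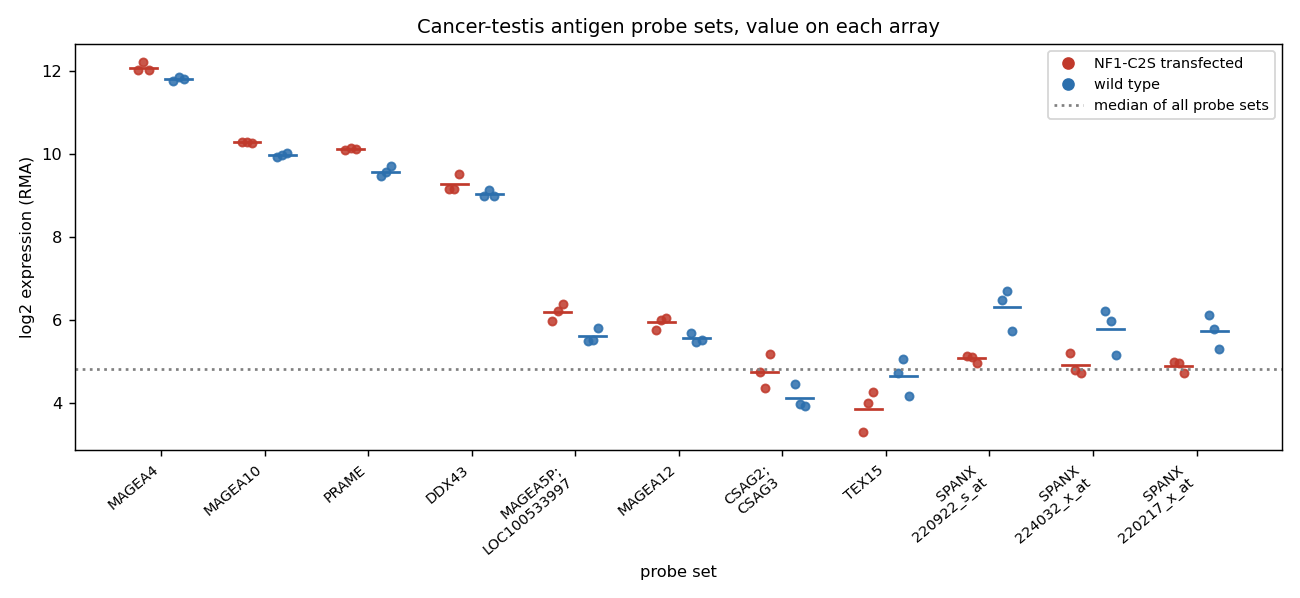
Log2 expression (y axis) of 11 member probe sets (x axis) on each array, transfected left and wild type right in each pair; bars are group means and the dotted line is the median of all probe sets. MAGEA4, MAGEA10, PRAME and DDX43 read above 8.9 on every array, and wild type replicate 3, the rightmost blue point, is the lowest wild type array in all 3 SPANX probe sets.

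CSAG genes lie between MAGE-A genes on the X chromosome, and CSAG2;CSAG3 had the most positive change of all members without a call. It read 4.73, 4.34 and 5.16 in transfected cells, against 4.45, 3.96 and 3.92 in wild type cells. The groups overlapped, with a change of 0.63 (95% interval 0.12 to 1.15, limma adjusted p = 0.0849). It passed without transfected replicate 2 (0.0297) and with the trended and robust prior (0.0487).

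The other X-linked families were dim as a rule, and none of their probe sets was called. The 7 MAGEB probe sets had group means from 2.66 to 3.67 in transfected and 2.77 to 3.60 in wild type cells, and the 4 MAGEC probe sets had means from 3.33 to 4.44 and from 3.40 to 4.26. MAGEC2, the brightest of the MAGEC genes, read 4.44 in transfected and 4.26 in wild type cells without overlap (limma adjusted p = 0.208). MAGEB4, the brightest of the MAGEB genes, read 3.67 and 3.60. MAGEB and MAGEC proteins share the MAGE homology domain of the MAGE-A adaptors.

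NY-ESO-1, a widely used vaccine antigen encoded by CTAG1A and CTAG1B, and its relative CTAG2 were dim on all 5 probe sets, with means from 3.22 to 4.13 in transfected and 3.22 to 4.13 in wild type cells. The largest change among them, 0.23 on a probe set of CTAG1A;CTAG1B, was not called although the groups did not overlap (limma adjusted p = 0.192). The 14 SSX probe sets had means up to 4.76 in transfected and 4.62 in wild type cells, with changes from -0.28 to 0.24. SSX proteins are transcriptional repressors whose genes are fused to SS18 in synovial sarcoma.

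GAGE, PAGE and XAGE proteins are small acidic proteins of related sequence. The 5 GAGE probe sets were dim, and the brightest, which names 12 GAGE genes, read 4.35 in transfected and 4.37 in wild type cells. PAGE4 was dim at 4.24, 4.21 and 4.17 in transfected cells and 4.04, 3.98 and 3.93 in wild type cells. Its groups did not overlap, and the change of 0.22 missed the threshold over probe sets (limma adjusted p = 0.0716). With 1 probe set per gene PAGE4 passed (0.0395), but that call ended whichever array was left out. It also ended with the trended and robust prior and when the _x_at and _s_at classes were dropped. Each normalization, array weights and the replicate block kept it. PAGE5 read 5.01 and 4.94, XAGE2 5.43 and 5.49, and XAGE-4, a transcribed pseudogene, 5.97 in both groups. For XAGE-4 the 95% interval of the change was -0.26 to 0.26.

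No probe set of CT45, or of the melanoma antigens of the BAGE family, was called. The brighter CT45 probe set read 3.47 in transfected and 3.41 in wild type cells, and the other had a change of 0.36 (limma adjusted p = 0.118, and 0.0453 with the replicate block). BAGE2 read 4.89 in transfected and 4.79 in wild type cells (limma adjusted p = 0.495).

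SYCP1, TEX14 and CTCFL were dim in both groups. SYCP1, which forms the transverse filaments of the synaptonemal complex, read 3.29 in transfected and 3.34 in wild type cells on its brighter probe set. TEX14, a protein of the bridges between germ cells, read 3.65 and 3.63. CTCFL, the germline paralog of the insulator protein CTCF also known as BORIS, read 3.05 and 3.07. Their changes of -0.05, 0.02 and -0.02 had limma adjusted p-values of 0.836, 0.945 and 0.958.

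TEX15, needed in mice for meiotic recombination and for silencing of transposons, varied more between arrays than its neighbours in the list. Its probe set with the larger difference read 3.30, 3.99 and 4.25 in transfected cells, against 4.71, 5.05 and 4.16 in wild type cells. The groups overlapped, and the change of -0.79 was not called (95% interval -1.46 to -0.13, limma adjusted p = 0.0936, and 0.0448 with the trended and robust prior). The other TEX15 probe set read a change of -0.10.

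The remaining name matches differ from the antigens in kind. SSX2IP encodes a centrosomal protein that binds SSX2 and is not itself restricted to testis. All 6 of its probe sets were at or above the median level, the brightest at 7.94 in transfected and 7.95 in wild type cells, and their changes of -0.11 to 0.39 were not called. One of them passed with the replicate block (log2 change 0.39, limma adjusted p = 0.03), and another with the trended and robust prior (0.29, 0.0426). The 4 CTAGE probe sets read changes from -0.16 to -0.02. In a count chosen after seeing the data, without SSX2IP, CTAGE and SPANXA2-OT1, 72 probe sets remained, 14 of them at or above the median level, with the same 4 rises and 2 falls.

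**Figure D4:**
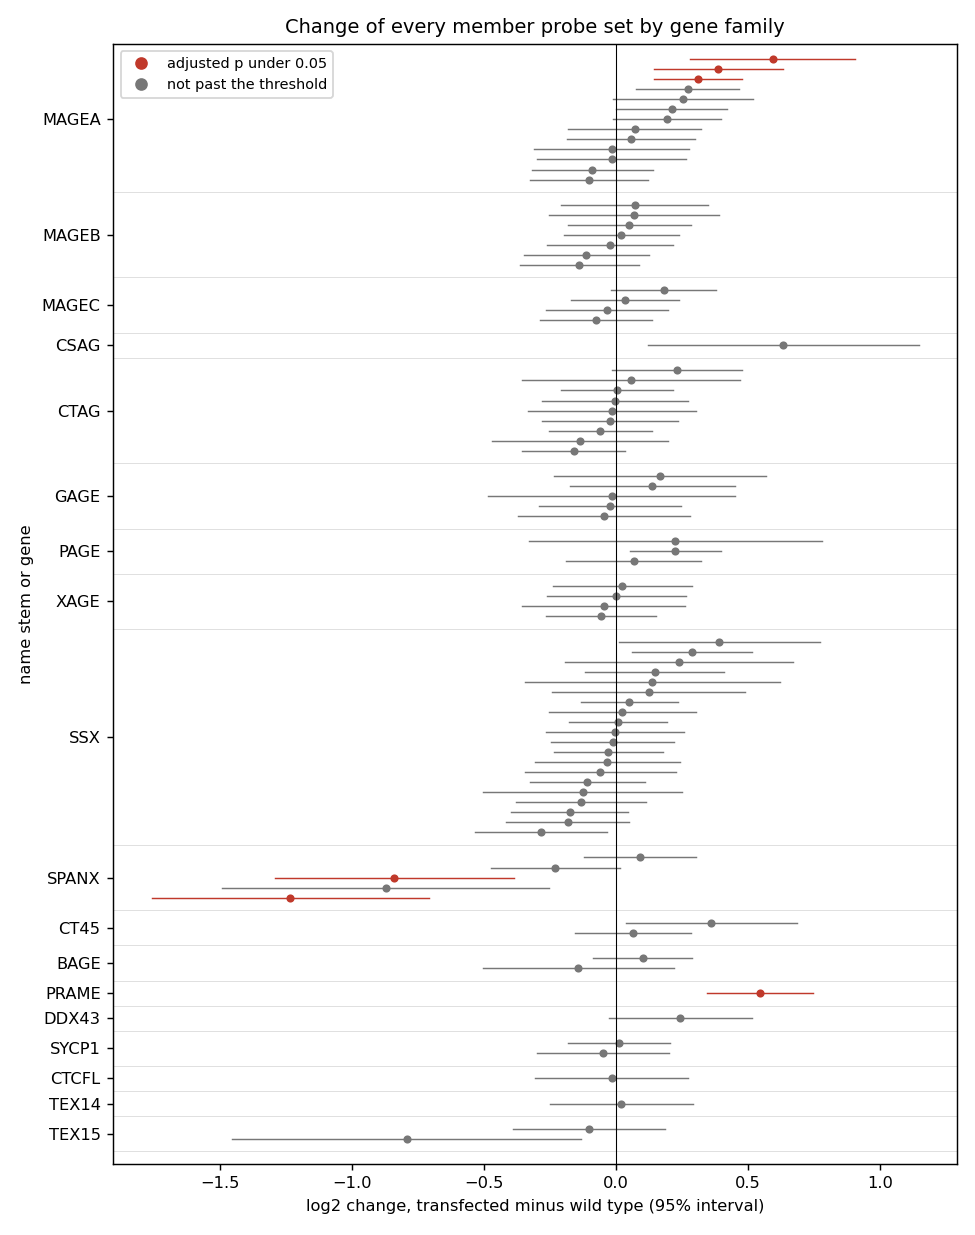
Change (transfected minus wild type, log2, x axis) with its 95% interval for each of the 83 member probe sets, grouped by name stem or gene (y axis); red marks limma adjusted p under 0.05. The 3 called MAGEA probe sets lie between 0.31 and 0.59, PRAME lies at 0.54, and the called SPANX probe sets lie at -0.84 and -1.23.

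Counted by gene, with the brightest probe set that names a single gene, 5 of the 39 member genes rose (PRAME, MAGEA12, MAGEA10, MAGEA4 and PAGE4), where 15.0% of all 19775 genes rose, and 0 fell, where 16.9% of all fell. The SPANX calls are absent from this count because those probe sets name several genes. The count of rises was 2 without wild type replicate 2, without wild type replicate 3 or without transfected replicate 2, and 3 without wild type replicate 1 or transfected replicate 3. The median change over the 39 genes was 0.02. With the trended and robust prior TEX15 was called lower as well (limma adjusted p = 0.0338), and likewise without wild type replicate 3 (0.0455).

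Genes around the called members on the chromosome, looked at after the members' values were seen, were mostly not called. Among the 10 measured genes nearest to PRAME that are not members, 1 rose and 9 were not called. Their median change was 0.01, and changes ran from -0.17 to 0.72. Around MAGEA10 2 rose, 2 fell and 6 were not called (median 0.04, from -0.37 to 0.27). Most of these genes also neighbour MAGEA12 and belong to the Xq28 list given next. Around SPANXC 1 rose, 2 fell and 7 were not called, with a median of -0.04 and changes from -1.24 to 0.36. The lowest is as large as the change of the main SPANX probe set (-1.23). Of 53 measured genes of Xq28, the band at the end of the X chromosome, that are not members, 11 rose, 6 fell and 36 were not called, with a median of 0.06. These counts are near the shares over all genes, of which 15.0% rose and 16.9% fell. Their rises numbered 7 without wild type replicate 1 and also without wild type replicate 2. Among them the vesicle GTPase RAB39B rose by 2.50 and the matrix proteoglycan BGN by 1.44, while the adhesion molecule L1CAM (-1.37) and the deubiquitinase BRCC3 (-1.10) fell.

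The MAGE genes that are expressed in most tissues behaved differently from one another. Of 9 measured, 3 rose, 1 fell and 5 were not called (2 fell with the replicate block), where 15.0% of all genes rose and 16.9% fell. MAGED1, an adaptor of the neurotrophin receptor, read 10.86 ± 0.04 in transfected and 10.29 ± 0.17 in wild type cells (SD, n = 3 each, limma adjusted p = 0.00294), and MAGED2 rose by 0.49. NDN, an imprinted growth suppressor, rose by 0.40, and MAGEF1, which promotes turnover of an iron-sulfur assembly factor, fell by 0.94.

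Among other genes of the germline, of 63 measured, 1 rose, 4 fell and 58 were not called, with a median of -0.02. Over all genes 15.0% rose and 16.9% fell, and 16 of the 63 were at or above the median level. The piRNA pathway gene MAEL fell to 3.34 ± 0.21 in transfected cells, against 5.03 ± 0.37 in wild type cells (limma adjusted p = 0.000435), and LY6K, a sperm surface antigen, fell by 1.22. TDRD9, a helicase of the piRNA pathway, and TEX11, a meiotic protein, fell by 0.53 and 0.45. The rise was that of ODF2, a protein of sperm tails and centrioles, at 0.32, and it was lost without wild type replicate 1 or 3. The replicate block gave 7 falls, and leaving out transfected replicate 3 gave 2. HORMAD1, a meiotic chromosome axis protein named after its values were seen, read 10.26 in transfected and 10.36 in wild type cells.

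Genes listed for silencing of the germline programme were mostly bright. The list also holds genes that are not silencers as such, among them TET1, TET2, TET3, ETS1, ETS2, SP1, CTCF and WDR5. Of these, ETS1, TET3 and CTCF are among its rises, and TET1 and WDR5 among its falls. Its counts are thus not counts of silencers alone. Of 50 measured, 16 rose, 8 fell and 26 were not called, with a median of 0.09. Over all 19775 genes 15.0% rose and 16.9% fell, with a median of 0. As 49 of the 50 were at or above the median level, their count is also to be read against the share called among bright genes. That share was not computed by gene, and over bright probe sets it was 38.7%. The falls numbered 5 without wild type replicate 2. The histone deacetylase HDAC1 rose by 1.34, reading 11.72 ± 0.08 in transfected and 10.38 ± 0.10 in wild type cells (limma adjusted p = 3.06e-05). The H3K4 demethylase KDM5B rose by 1.28, and the methyl-CG binding proteins MBD1 and MBD2 rose by 1.15 and 1.07.

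Further genes of that list were picked after their values were seen. MGA, E2F6 and RYBP, subunits of a Polycomb complex that represses meiotic genes, rose by 1.06, 0.97 and 1.02. Other listed subunits went either way, as YAF2 rose by 0.44 and WDR5 fell by 0.62. PCGF6, L3MBTL2, MAX, CBX3, TFDP1 and RING1 were not called, with changes between -0.16 and 0.16. The maintenance methylation genes DNMT1 and UHRF1 read 0.15 and -0.14 and were not called (limma adjusted p = 0.113 and 0.305). The de novo methyltransferase DNMT3A fell by 0.29 and DNMT3B read -0.0033. Of the DNA demethylases, TET1 fell by 0.85, TET3 rose by 0.38 and TET2 read 0.04 without a call. TET1 was the dimmest of them, at 4.74 in transfected and 5.59 in wild type cells. These are transcript levels, and DNA methylation was not measured on these arrays.

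**Figure D5:**
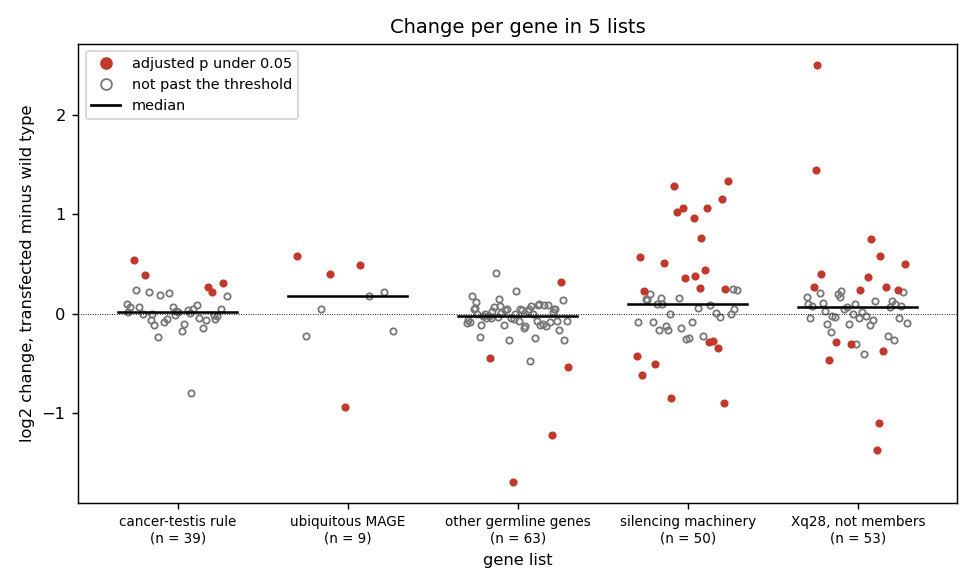
Log2 change per gene (y axis, transfected minus wild type) for the 39 cancer-testis genes and 4 further gene lists (x axis); red points passed limma's adjusted p of 0.05 over all genes and black bars are medians. The member genes lie between -0.79 and 0.54, while HDAC1 in the silencing list reaches 1.34 and MAEL among other germline genes reaches -1.69.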

How the data were processed

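Total RNA of 6 samples, 3 per group, was labelled with biotin and hybridised to Affymetrix arrays. The deposited values are log2 expression levels, 1 per probe set and array, which per the submitters' processing notes were made with RMA (background correction, normalization between arrays, summary per probe set). Its version, and which arrays were normalized together, the notes do not state. Arrays have no read depth, and their number limits the precision. Within groups, probe sets had a median SD of 0.119 in transfected and 0.11 in wild type cells.

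The 62 control probe sets were left out. Genes were named through the platform annotation, updated by gene identifier to GRCh38.p14 symbols. It gives 41091 probe sets 1 gene, 1801 several and 11721 none. Of the 133 genes of a GRCh38.p14 gene table that meet the symbol rule, 83 are named by a probe set. Groups were compared with limma 3.58.1 in R 4.3.3 (two-sided, Benjamini-Hochberg over 54613 probe sets or 19775 genes). The fit was tested on simulated data.

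Members, lists and the rule for naming genes were chosen with earlier results of these data known. By that rule, called members, the brightest probe set of each of the 18 name stems or genes, and up to 4 called genes per list are named. Same-numbered arrays deviate together from their group means (correlations of 0.398, 0.238 and 0.14 for replicates 1, 2 and 3, where one pair of unlike number reached 0.142), so a fit blocked on replicate number is given where it changes a call. The other alternatives were 3 normalizations, array weights, a trended and robust prior, filters on probe sets and leaving out each array.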

Additional observations from a re-analysis of the deposited data

How the results depend on the processing

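Normalization by median centring, quantiles or cyclic loess moved the median of all probe sets by less than 0.01 from 0.0067 and kept the counts of member rises and falls within 1.5 times of 4 and 2. When _x_at and _s_at probe sets were dropped, 7153 probe sets of all were called in place of 12142, 2 member probe sets rose and 0 fell, and 3 member genes rose. Without probe sets that name several genes, 0 fell. With the trended and robust prior, 4 member probe sets and 1 member gene fell. With the replicate block, 5 member probe sets rose and 3 fell, 2 ubiquitous MAGE genes fell in place of 1, and 7 other germline genes fell in place of 4, while the remaining counts stayed within 1.5 times. Leaving out each array in turn gave 1 to 6 rises and 1 to 3 falls among member probe sets, and 2 to 5 rises and 0 to 1 falls among member genes. It gave 0 to 1 rises and 2 to 4 falls among other germline genes, 12 to 14 rises and 5 to 9 falls in the silencing list, 7 to 11 rises and 4 to 6 falls in Xq28, and 3 rises and 1 fall among ubiquitous MAGE genes. The cause of these shifts, including the smaller number of arrays or probe sets in some settings, was not tested. Of 328 values of named probe sets under alternatives, 298 kept their side of the threshold, 15 lost a call and 15 gained one, and no called value changed sign. Dim probe sets limit what the comparison can show for most members.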

Other observations

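Among markers of other cell types, 2 of 8 blood cell genes (leukocyte genes and HBB) were called. They were ITGAM (log2 change -1.21) and CD14 (0.82), where 15.0% of all genes rose and 16.9% fell. Of 9 endothelial and fibroblast genes 0 were called by limma. Of 12 germ cell and pluripotency genes, TFAP2C (-1.07) and SOX17 (-0.87) fell and SALL4 rose by 0.45. In a list of 12 genes that tell breast epithelial from mesenchymal cells, 1 rose and 4 fell, among them ELF3 (1.55), GATA3 (-1.33), KRT7 (-0.98) and KRT18 (-0.93). The remaining fall, named after its values were seen, was that of VIM (-0.52), the only mesenchymal marker of the list. The called epithelial markers went either way, and the 7 genes not called were all epithelial. Their part in the cancer-testis results was not tested.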
